A study of Rattus norvegicus with 8 samples.

Results

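Oligodendrocytes are the glial cells that wrap axons of the central nervous system in myelin. In the striatum they lie between the neurons and in the fibre bundles that cross the tissue, and precursor cells that persist in the adult brain renew them. Myelin basic protein and its partners compact the sheath, adhesion proteins hold it to the axon, enzymes make its galactolipids, and the transcription factors Olig2, Sox10 and Myrf act in turn as a precursor becomes a myelin-forming cell. Of 36 gene symbols chosen for this lineage, 35 were listed among the 17337 genes of the count data, and all 35 passed the filter on low counts, which left 12014 genes. No row carried the symbol Trf. The symbol Tf, under which rat transferrin is listed, was read beside the list and was not counted in it.

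The striatum of 8 male, wild-type Sprague-Dawley rats was sequenced after poly(A) selection. Of these, 4 had self-administered methamphetamine (METH) intravenously at 0.05 mg/kg per infusion, in sessions of 2 h per day over 16 days, and 4 had received saline under the same schedule. All the rats had been trained to press a lever for food and carried a jugular catheter, and the methods describe the choice, for sampling, of rats whose lever pressing was stable. Each library is 1 rat, the age of the rats is not given in the sources used here, and a whole-tissue library holds every cell type of the dissected piece.

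Total counts lay between 18135939 and 21211920 per rat. Levels are given as CPM, which are counts per 1000000 after TMM scaling of the libraries. The number taken as the floor, 3 counts, corresponded to between 0.142 and 0.169 CPM. A gene was called when its false discovery rate (FDR) over all genes tested, by the quasi-likelihood (QL) test of edgeR, was below 0.05 and its mean log2 CPM was above 1. METH rat 3 stood apart on the first principal component of all genes (39.5, against 0.3 to 5.3 in the other METH rats). Saline rat 1 held 65.8 CPM of Slc17a7, the vesicular glutamate transporter of cortical neurons, against 3.12 to 12.2 CPM in the other 7 rats. Values without these rats are given where they bear on a result.

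Sequences upstream of 3 of these genes are given first. Windows of 250 bases before the annotated start were taken from RefSeq, assembly GRCr8, and 26 of the 35 genes had one. They were searched on both strands for ACAAAG, the core bound by SOX factors, CAGCTG, a form of E-box bound by basic helix-loop-helix factors, and CTGGCAC, a form of the Myrf motif. No motif overlaps another in the windows shown, and the capitals mark every match or its reverse complement. Opalin and Cnp are shown because their windows hold all 3 motifs, and Mag because it holds the SOX and Myrf letters.
Opalin (chr1:249858191-249858440, minus strand): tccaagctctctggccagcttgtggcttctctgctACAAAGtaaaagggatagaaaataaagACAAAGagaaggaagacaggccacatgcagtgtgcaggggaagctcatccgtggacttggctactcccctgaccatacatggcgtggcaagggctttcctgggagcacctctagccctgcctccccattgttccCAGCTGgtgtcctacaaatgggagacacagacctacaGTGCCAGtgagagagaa
Cnp (chr10:86011254-86011503, plus strand): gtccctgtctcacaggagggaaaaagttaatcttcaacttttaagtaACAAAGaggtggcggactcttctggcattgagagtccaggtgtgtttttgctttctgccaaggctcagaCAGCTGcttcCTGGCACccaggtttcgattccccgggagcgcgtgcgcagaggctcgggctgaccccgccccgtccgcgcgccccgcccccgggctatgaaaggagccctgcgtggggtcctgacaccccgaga
Mag (chr1:95291045-95291294, minus strand): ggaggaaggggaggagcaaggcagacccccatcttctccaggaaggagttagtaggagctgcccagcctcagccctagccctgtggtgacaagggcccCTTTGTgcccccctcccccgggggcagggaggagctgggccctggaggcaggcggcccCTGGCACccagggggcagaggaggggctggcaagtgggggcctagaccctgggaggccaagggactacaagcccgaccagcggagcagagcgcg

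In the Opalin window the SOX letters began at -215 and -188, the E-box at -54 and the Myrf letters, as their reverse complement, at -17, counted from the start site. The Cnp window held them at -203, -134 and -124, in the same order of motifs, and the Mag window held the SOX letters at -152 and the Myrf letters at -94. Over all 27457 windows of this length, ACAAAG was found in 4383 windows, CAGCTG in 11.9% and CTGGCAC in 3.69%. Among the 26 windows of the oligodendrocyte and myelin genes, 5 held ACAAAG (19.2%), 4 held CAGCTG (15.4%) and 5 held CTGGCAC (19.2%), the last in Mag, Opalin, Mal, Cnp and Olig2. The median share of G and C was 62% in the 26 windows and 52% in all windows, and the motif shares were not adjusted for it. These are matches of letters, and binding was not measured.

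Most of the genes had a lower mean in METH rats than in saline rats, by small amounts, and no single gene was called. Of the 35 genes, 31 had a log2 fold change below 0 (88.6%, against 51.4% of all genes tested). The median log2 fold change was -0.13, beside -0.01 over all genes tested, and the values ran from -0.65 in Enpp6 to 0.23 in Bcas1. By the edgeR quasi-likelihood test, 0 of the 35 genes were called, where 0.516% of all genes tested were. At an unadjusted p under 0.05, 8 genes were lower in METH rats (22.9%, against 4.88% of all genes tested) and 0 were higher (against 6.26%). The Wald test of DESeq2 called 1 of the 35, Opalin, where it called 1.54% of the genes it tested. In bulk tissue, fewer cells of a type and less RNA per cell cannot be told apart. The genes varied together from rat to rat, so these counts describe the list and are not a test of it. With 1 rat left out, the number of genes at an unadjusted p under 0.05 ran from 5 (without saline rat 4, where 8.94% of all genes tested were at that p) to 10 (without saline rat 1 or 3, where 11.5% and 9.08% were). Without METH rat 3 the median was -0.21 and without saline rat 1 it was -0.17, while it was -0.07 without METH rat 4 and also without saline rat 2.

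**Figure D1:**
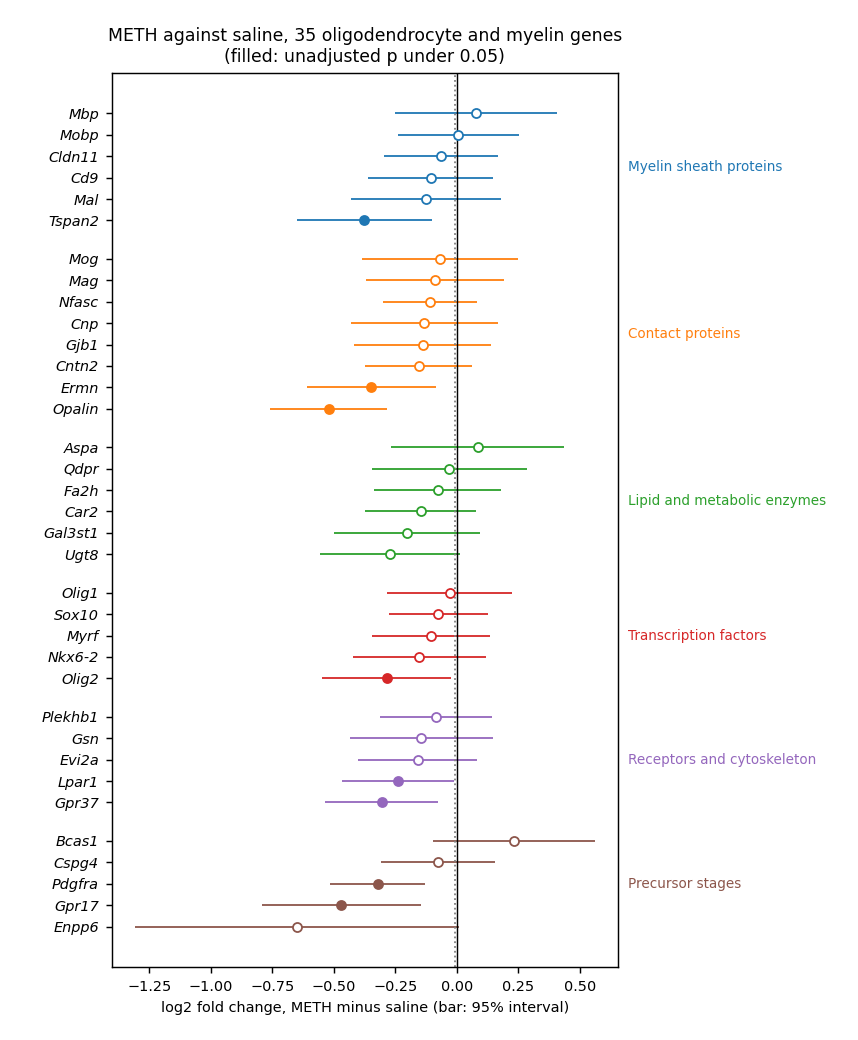
Log2 fold change (METH minus saline, x axis) of the 35 oligodendrocyte and myelin genes, grouped by role, with 95% intervals from the edgeR fit (4 rats in each group). Filled points had an unadjusted p under 0.05, none of the 35 passed the FDR threshold, and the dotted line is the median of all genes tested. The 31 points left of 0 include Opalin at -0.52 and the 4 on the right are Mbp, Mobp, Aspa and Bcas1.

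Among the proteins of the sheath itself, Tspan2 alone of the 6 genes had a 95% interval that left out 0. Mbp, which binds the cytoplasmic faces of the membrane together, was at 8046, 10948, 6938 and 8943 CPM in saline rats 1 to 4 and at 10061, 7685, 11796 and 7268 CPM in METH rats 1 to 4. METH rat 3 and saline rat 2 were the highest, saline rat 3 was the lowest and the groups overlapped. This gave Mbp a log2 fold change of 0.08 (95% interval -0.25 to 0.41). Mobp, a small basic protein with a related place in the sheath, was at 555, 772, 614 and 728 CPM in the saline rats and at 659, 582, 799 and 642 CPM in the METH rats. Its log2 fold change of 0.01 had an interval from -0.24 to 0.25, and its sign turned with total-count or upper-quartile scaling. Tspan2, a tetraspanin of the oligodendrocyte membrane, was at 211, 288, 198 and 233 CPM in the saline rats and at 218, 169, 179 and 149 CPM in the METH rats. Only METH rat 1 reached into the saline range. Its mean was 232 ± 39.5 CPM (SD, n = 4) against 179 ± 29.1 CPM (SD, n = 4), a log2 fold change of -0.38 (SE 0.13, unadjusted p = 0.011 and FDR = 0.296 by the edgeR QL test). Cldn11, the claudin of the myelin tight junctions, Cd9 and Mal had log2 fold changes of -0.06, -0.11 and -0.13, with intervals that included 0.

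Opalin, a transmembrane glycoprotein of central myelin, had the smallest p of the list. It was at 150.0, 187, 145 and 149 CPM in saline rats 1 to 4 and at 122, 92.9, 123 and 101 CPM in METH rats 1 to 4. All METH values lay below the lowest saline value, and saline rat 2 stood above the other saline rats. Opalin was the only one of the 35 genes whose groups did not overlap, a separation found in 6.39% of all genes tested and, with METH lower, in 2.65%. With 3 rats against 4 a separation is more frequent. It was found in 8 of the 35 genes without METH rat 1 (13.5% of all genes tested), in 5 without saline rat 1 (10.8%) and in 2 without METH rat 3 (8.35%). The mean was 158 ± 19.8 CPM (SD, n = 4) with saline against 109.9 ± 15.2 CPM (SD, n = 4) with METH, a log2 fold change of -0.52 (SE 0.11, 95% interval -0.76 to -0.28), or 0.697 times the saline level. The exact permutation test of log2 CPM gave a two-sided p of 0.0286, the smallest that 4 rats against 4 allow. The edgeR QL test gave an unadjusted p of 0.000354, which ranked Opalin 67 among the genes tested, and an FDR of 0.0632, so that it was not called. Its FDR ranged from 0.00152 to 0.279 over the alternatives, and it was called by the Wald test of DESeq2 (0.00152), with total-count scaling in edgeR (0.039) and by edgeR without the filter on low counts (0.0383).

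Of the other 7 genes grouped with Opalin as contact proteins, not all of which lie at the surface of the sheath, Ermn alone had an interval that left out 0. Ermn, a cytoskeletal protein of late oligodendrocytes, was at 75.5, 95.6, 75.6 and 101 CPM in the saline rats and at 81.7, 67.3, 67.0 and 57.6 CPM in the METH rats. The 3 lowest values of all were METH rats, and METH rat 1 lay within the saline range. The log2 fold change of Ermn was -0.35 (SE 0.12, unadjusted p = 0.0135 and FDR = 0.313 by the edgeR QL test). Mag, the adhesion protein of the inner myelin layer, was at 364, 477, 413 and 469 CPM in the saline rats and at 435, 342, 509 and 332 CPM in the METH rats. The highest and the lowest values of Mag were both in METH rats. Cnp, the phosphodiesterase that keeps channels of cytoplasm open in the sheath, was at 811, 1084, 762 and 908 CPM in the saline rats and at 922, 691, 989.9 and 652 CPM in the METH rats. Saline rat 2 was the highest and METH rat 4 the lowest for Cnp, with wide overlap. Their log2 fold changes were -0.09 (interval -0.37 to 0.19) and -0.13 (interval -0.43 to 0.17). Those of Mog, Gjb1, Nfasc and Cntn2 were -0.07, -0.14, -0.11 and -0.16, each with an interval that included 0. Nfasc and Cntn2, which build the node and its flanks, are also made by neurons, so that their levels here are not those of oligodendrocytes alone.

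Among the enzymes, none of the 6 genes had an unadjusted p under 0.05 by the edgeR QL test. Ugt8, which adds galactose to ceramide in the first step of myelin galactolipid synthesis, was at 126, 157, 122 and 176 CPM in the saline rats and at 152, 112, 109 and 109 CPM in the METH rats. METH rat 1 was close to saline rat 2, and the other METH rats were below all saline rats. Ugt8 thus had a log2 fold change of -0.27 (interval -0.56 to 0.01, unadjusted p = 0.0613 by the edgeR QL test), and -0.17 without saline rat 4. Gal3st1, which sulfates that lipid, had -0.20 and Fa2h, the fatty acid 2-hydroxylase, -0.08. Car2, a carbonic anhydrase, had -0.15, Qdpr, which regenerates tetrahydrobiopterin, -0.03 and Aspa, which splits N-acetylaspartate, 0.09. All of these intervals included 0.

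Of the 5 transcription factors, Olig2 alone had an interval that left out 0. Sox10 was at 125, 148, 137 and 138 CPM in the saline rats and at 137, 118, 150.2 and 115 CPM in the METH rats. Myrf, the factor that switches on the myelin genes, was at 141, 175, 167 and 169 CPM in the saline rats and at 168, 137, 177 and 125 CPM in the METH rats. For both genes METH rats 2 and 4 were the lowest of all rats and METH rat 3 was the highest. Their log2 fold changes were -0.07 (interval -0.28 to 0.13) and -0.10 (interval -0.34 to 0.14), and those of Olig1 and Nkx6-2 were -0.03 and -0.15. Olig2, which specifies the lineage and stays on in precursors, was at 68.8, 89.8, 67.7 and 82.4 CPM in the saline rats and at 56.8, 60.0, 78.8 and 57.9 CPM in the METH rats. Of the METH rats, only rat 3 reached the saline range. Olig2 had a log2 fold change of -0.28 (SE 0.12, unadjusted p = 0.0353 and FDR = 0.419 by the edgeR QL test), which was -0.41 without METH rat 3, and its unadjusted p stayed under 0.05 in 9 of 15 alternatives.

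Of the 5 genes for signalling, transport and the cytoskeleton, Gpr37 and Lpar1 had intervals that left out 0. Gpr37, an orphan receptor of maturing oligodendrocytes, was at 163, 205, 167 and 193 CPM in the saline rats and at 173, 142, 151 and 123 CPM in the METH rats. Apart from METH rat 1, the METH rats were below every saline rat. The log2 fold change of Gpr37 was -0.31 (SE 0.11, unadjusted p = 0.0131 and FDR = 0.311 by the edgeR QL test). Lpar1, a receptor for lysophosphatidic acid, was at 72.5, 100.5, 81.3 and 85.3 CPM in the saline rats and at 79.3, 66.2, 77.1 and 65.3 CPM in the METH rats. Here METH rats 1 and 3 lay above saline rat 1. Lpar1 had a log2 fold change of -0.24 (SE 0.11, unadjusted p = 0.0408 and FDR = 0.428 by the same test). Without saline rat 2 it was -0.15, and the unadjusted p stayed under 0.05 in 10 of 15 alternatives and reached 0.164. Gsn, the actin-severing protein gelsolin, Evi2a and Plekhb1 had log2 fold changes of -0.14, -0.16 and -0.08 with intervals that included 0. Tf, transferrin, the iron carrier that oligodendrocytes make in large amounts, had -0.01 (interval -0.28 to 0.26).

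Genes of the precursor and early stages held both ends of the list. Pdgfra, the growth factor receptor that defines oligodendrocyte precursors, was at 72.7, 90.3, 88.2 and 83.7 CPM in the saline rats and at 73.9, 63.5, 62.4 and 68.4 CPM in the METH rats. The groups overlapped only through saline rat 1 and METH rat 1. Its log2 fold change was -0.32 (SE 0.09, 95% interval -0.51 to -0.13; -0.38 without saline rat 1), with an unadjusted p of 0.00317 and an FDR of 0.193 by the edgeR QL test, and the FDR reached 0.0595 at its lowest among the alternatives. Gpr17, a receptor found on precursors that have begun to differentiate, was at 14.8, 23.2, 24.1 and 22.1 CPM in the saline rats and at 17.4, 14.8, 14.4 and 14.3 CPM in the METH rats. Saline rat 1 was as low as the METH rats and the other saline rats were above all of them. The log2 fold change of Gpr17 was -0.47 (SE 0.15, unadjusted p = 0.00781 and FDR = 0.265 by the edgeR QL test), and -0.60 without saline rat 1, with an FDR of 0.0507. Leaving out either saline rat 1 or METH rat 1 separated the groups in both Pdgfra and Gpr17. Cspg4, the NG2 proteoglycan of the same precursors, had a log2 fold change of -0.08 (interval -0.31 to 0.16), and its difference from Pdgfra was not tested.

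Enpp6, an enzyme of newly forming oligodendrocytes, had few reads. It was at 6.31, 7.70, 3.62 and 7.75 CPM in the saline rats and at 6.66, 3.57, 3.05 and 2.85 CPM in the METH rats, from 54 to 164 counts. METH rat 1 sat with the high saline rats and saline rat 3 with the low METH rats. Its log2 fold change of -0.65 was the lowest of the list, with the widest interval (-1.31 to 0.01), and it was -1.01 without METH rat 1. Bcas1, a protein of early myelinating cells, was at 271, 344, 237 and 315 CPM in the saline rats and at 341, 266, 461 and 304 CPM in the METH rats. METH rat 3 was the highest by far and the other METH rats lay within the saline range. Bcas1 had a log2 fold change of 0.23 (interval -0.10 to 0.56), which was 0.06 without METH rat 3 and 0.14 without saline rat 3.

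**Figure D2:**
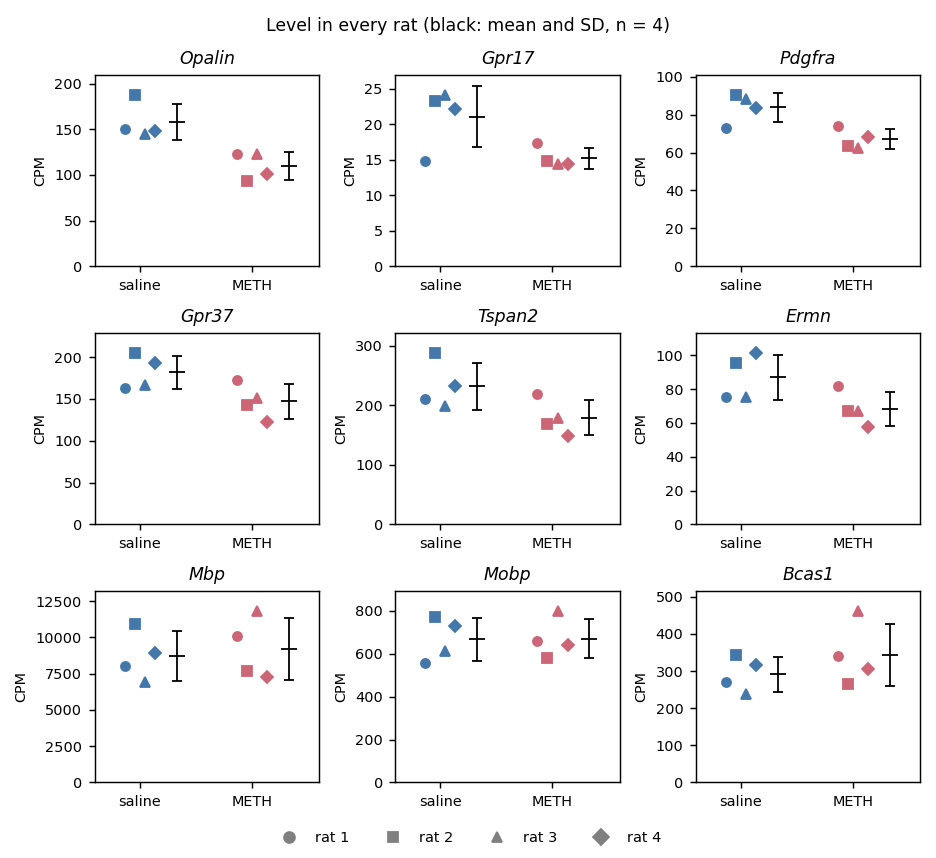
Level in CPM (y axis, from 0) of 9 genes in each of the 4 saline and 4 METH rats, with the rat's number given by the shape of the point and the mean and SD in black. In Opalin all METH rats sit below all saline rats, whereas in Mbp, Mobp and Bcas1 the highest point is METH rat 3.

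The levels varied together from rat to rat. The median SD within groups was 0.21 on the log2 scale over the 35 genes, against 0.12 over the 2588 genes tested whose mean log2 CPM lay between the lower and the upper quartile of the list. The mean over the 35 genes, relative to the mean of the 8 rats, was -0.09, 0.27, -0.04 and 0.18 log2 units in saline rats 1 to 4 and 0.08, -0.22, 0.08 and -0.27 in METH rats 1 to 4. METH rats 2 and 4 were the lowest, saline rats 2 and 4 the highest, and the other rats of both groups lay together between them. METH rat 4 held the lowest value of the 8 rats in 21 of the 35 genes (60.0%, against 9.77% of all genes tested), and saline rat 2 held the highest in 14 (40.0%, against 12.7%). METH rat 3 held the highest value in 9, Mbp, Mog, Mag, Mobp, Cldn11, Myrf, Sox10, Olig1 and Bcas1 (25.7%, against 23.1%). In this rat the genes of the sheath were on average 0.16 and the transcription factors 0.21 above the mean of the 8 rats. Those of the precursor stages were on average 0.11 below it. The precursor genes did not move together there, as Bcas1 was at its highest (461 CPM) and Pdgfra at its lowest (62.4 CPM). The summed level of the 35 genes lay between 13790 and 19478 CPM in the saline rats and between 13233 and 19889 CPM in the METH rats, of which Mbp made up 50.3% to 59.3%.

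**Figure D3:**
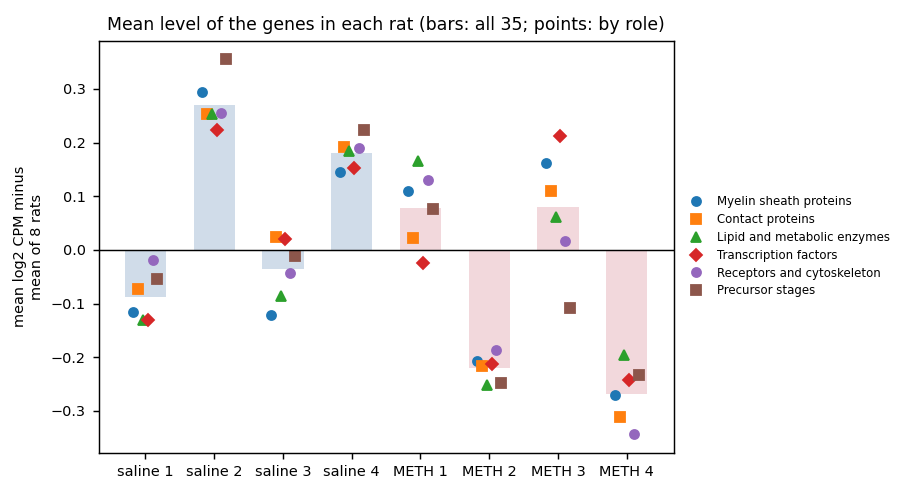
Mean log2 CPM in each rat minus the mean of the 8 rats (y axis), for all 35 genes (bars) and for the genes of each role (points). Saline rats 2 and 4 are the highest at 0.27 and 0.18, and METH rats 2 and 4 the lowest at -0.22 and -0.27, with 4 rats of both groups between them.

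Each gene was also read relative to the mean log2 CPM of the other 34 in the same rat, a comparison added after the values were known. On this scale Opalin was 0.11, 0.07, 0.01 and -0.18 from the saline mean in saline rats 1 to 4 and -0.36, -0.47, -0.36 and -0.29 in METH rats 1 to 4. The groups again did not overlap, with a difference of -0.37 (SE 0.07). Gpr37 was between -0.01 and 0.02 in the saline rats and between -0.27 and -0.05 in the METH rats, a difference of -0.15 (SE 0.06). Bcas1 was between -0.17 and 0.08 in the saline rats and between 0.19 and 0.70 in the METH rats, a difference of 0.39 (SE 0.13). These were the only 3 of the 35 genes without overlap, 2 lower and 1 higher. Read against the mean of all 35 genes, 0.25% of all genes tested were lower without overlap and 4.61% were higher. That mean varied from rat to rat, from 0.27 in saline rat 2 to -0.27 in METH rat 4. Subtracting it shifts and spreads the genes outside the list, so these shares are not a like background for the 35. Pdgfra and Gpr17, at -0.16 and -0.29, overlapped between the groups. Mbp was 0.24 higher (SE 0.11), also with overlap.

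**Figure D4:**
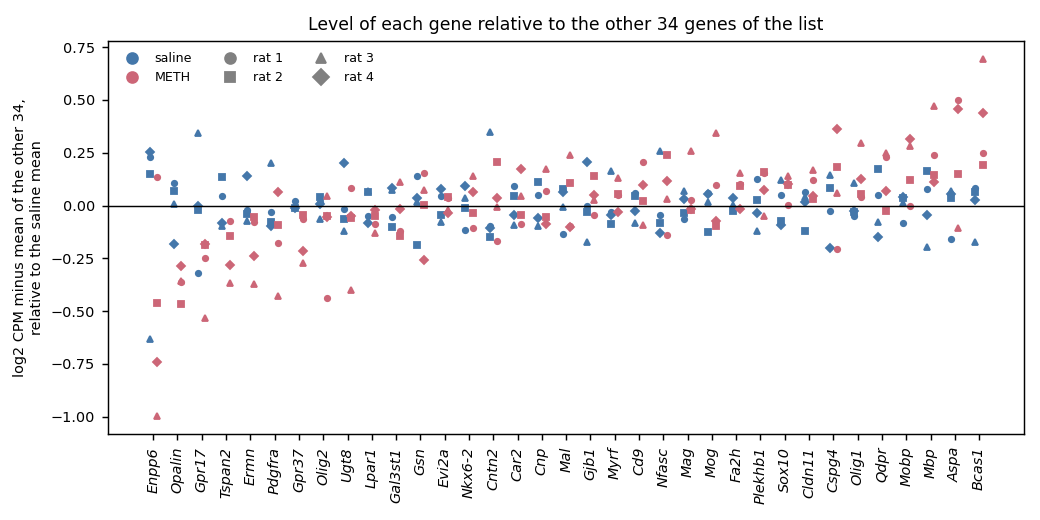
Log2 CPM of each gene minus the mean of the other 34 genes in the same rat, set to 0 at the saline mean (y axis), for saline (blue) and METH (red) rats, with genes ordered by the difference. Opalin and Gpr37 lie lower and Bcas1 higher in all METH rats than in all saline rats.

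Further oligodendrocyte genes were read outside the list. Of 21 with a row, 15 had a log2 fold change below 0 (51.4% of all genes tested did), with a median of -0.15. The edgeR QL test called 0 of the 21 (0.516% of all genes tested). At an unadjusted p under 0.05 it gave 5 lower (Erbb3, Tmem125, Hhip, Tppp and Slc44a1) and 0 higher. Over all genes tested, 4.88% were lower and 6.26% higher at that p. Erbb3, a receptor for neuregulins, was at 34.4, 35.8, 36.3 and 38.3 CPM in the saline rats and at 25.5, 28.4, 28.9 and 23.8 CPM in the METH rats. The groups did not overlap, as in 2.65% of all genes tested with METH lower, and the saline rats were close to each other. The log2 fold change of Erbb3 was -0.44 (SE 0.09, edgeR QL FDR = 0.0632), and the Wald test of DESeq2 called it, with an FDR of 0.00292.

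Markers of the other cells in the tissue were read in the same libraries. Over all genes tested, 0.516% were called, and 4.88% were lower and 6.26% higher at an unadjusted p under 0.05 by the edgeR QL test. The summed level of 10 astrocyte markers was 4531 to 5612 CPM in saline rats and 4826 to 5862 CPM in METH rats. By the edgeR QL test 0 of the 10 were called, and 1 was higher at an unadjusted p under 0.05 (Gjb6). Their median log2 fold change was 0.075. For 10 microglial markers it was 486 to 564 CPM and 443 to 535 CPM, with 1 called, Cx3cr1, lower in METH rats (log2 fold change -0.73, edgeR QL FDR = 0.0408), a call lost with the replicate block and in 6 of the 8 fits that left out 1 rat. At an unadjusted p under 0.05, 2 of the 10 were lower, Cx3cr1 and Csf1r (log2 fold change -0.22), and 0 were higher. The median log2 fold change of the list was -0.175. For 9 endothelial and mural markers the summed level was 486 to 698 CPM and 490.1 to 524 CPM, with 0 called, 3 lower and 1 higher at an unadjusted p under 0.05. Of these 9, 8 had a log2 fold change below 0, and the median was -0.19. For 10 markers of striatal projection neurons the summed level was 14820 to 15670 CPM and 15700 to 19680 CPM, with 0 called. The ranges of this sum did not overlap but nearly touched. Of this sum, Ppp1r1b alone was 6785 to 7594 CPM and 7456 to 10288 CPM. Drd1 was at 451 to 515 CPM and 450 to 508 CPM. At an unadjusted p under 0.05, 3 of the 10 were higher and 0 lower. The median log2 fold change was 0.146, and 3 of the 10 were below 0. For 9 markers of cortical excitatory neurons the summed level was 26.1 to 114.7 CPM and 31.9 to 41.8 CPM. It was 4.34 to 5.75 CPM and 6.14 to 9.06 CPM for 8 of the choroid plexus. For 8 of Schwann cells it was 263 to 329.5 CPM and 358 to 400.5 CPM. The ranges of the choroid plexus and Schwann cell sums did not overlap between the groups. Ttr, which defines the choroid plexus, was at 1, 0, 3 and 0 counts in saline rats 1 to 4 and at 28, 4, 36 and 0 counts in METH rats 1 to 4. Of the Schwann list, Egr2 was called and higher in METH rats and Pou3f1 was higher at an unadjusted p under 0.05, and neurons also make both. The part of these other cells in the differences above was not tested.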

How the data were processed

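Poly(A)-selected striatal RNA of 8 rats, 1 library per rat, was sequenced as paired-end reads. Per the submitters' processing notes and the methods, the authors used Cutadapt 1.18 for adapters, STAR 2.7.0e with the rn6 genome and featureCounts of Subread 1.6.4, and deposited raw counts per gene. Annotation, strandedness and the treatment of multimapping reads are not given in the sources used here, so paralogous or overlapping genes are uncertain.

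Those counts were analysed here in R 4.3.3. With edgeR 4.0.16, filterByExpr (minimum count 10) left 12014 genes, which were TMM-scaled and tested by quasi-likelihood with Benjamini-Hochberg adjustment. SE is the log2 fold change over the square root of F, and log2 CPM used a prior count of 2. On simulated counts for these 12014 genes, 200 were shifted by 1 log2 unit, and the fit called 162 of them and 9 others. That shift is larger than any log2 fold change of the 35 genes (-0.65 to 0.23), and genes were simulated independently. The simulation therefore does not give the power for the list. No pair of rats within a group agreed within sampling noise.

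The members, lists and tests were chosen with earlier results of these data known. All 35 genes are named, with the value in each rat for those with an unadjusted p under 0.05 or separate groups, fixed genes of each role and the 3 with the largest spread. Alternatives were RLE, upper-quartile and total-count scaling, no filter, DESeq2 1.42.0, voom in limma 3.58.1, a replicate block and each rat left out. The comparison relative to the other members was added after seeing the data. Upstream sequences and their coordinates are from RefSeq, GRCr8.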

Additional observations from a re-analysis of the deposited data

Results flagged for a closer look

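In each group of 4 rats, the gap that set the highest or the lowest rat apart from the next was divided by the whole range. Among 70 such groups of the 35 genes, 4 gave a value past the 95% critical value of Dixon's test, which chance alone passes in about 1 in 20. It was 0.874 for Opalin, where saline rat 2 was the highest, 0.922 for Ugt8 and 0.853 for Gpr17, where METH rat 1 was the highest, and 0.833 for Olig2, where METH rat 3 was the highest. Without saline rat 2 the log2 fold change of Opalin was -0.43. For whole libraries it was 0.872 for METH rat 3 on the first principal component and 0.872 for saline rat 2 in the number of genes with a count.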

How the results depend on the processing

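Over all genes edgeR called 62, 8 of them lower. DESeq2 called 183 (47 lower), no filter gave 13 lower, and leaving out 1 rat gave 37 to 70 (2 to 9 lower). Of the 35 genes, 0 were called, but 1, Opalin, was called by DESeq2, with total-count scaling and with no filter. The rat numbers are not stated to pair the rats, and deviations of same-numbered rats correlated at 0.01, -0.19, -0.20 and 0.04, with 2 of 8 rats closest to their own number. With the number as a replicate block 37 genes were called, 2 lower, and 0 of the 35.

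Leaving out 1 rat gave 5 to 10 of the 35 genes at an unadjusted p under 0.05, 0 to 1 of them higher, and 1 to 8 without overlap, where 8.35% to 13.5% of all genes tested did not overlap. The median log2 fold change of the 35 stayed below 0 in every alternative run. Mobp turned to -0.0323 with total-count and -0.0025 with upper-quartile scaling. With 1 rat left out, the sign turned for Mbp (-0.0642 to 0.21), Mog (-0.23 to 0.034), Mobp (-0.0883 to 0.084), Cldn11 (-0.15 to 0.009), Aspa (-0.0696 to 0.16), Fa2h (-0.16 to 0.0095), Olig1 (-0.15 to 0.0404), Qdpr (-0.12 to 0.11), Cspg4 (-0.14 to 0.021) and Tf (-0.12 to 0.0947). The causes were not tested. With 4 rats per group the 95% intervals of the 35 genes had a median width to either side of 0.26 on the log2 scale, so a smaller difference could not be told from 0 in a typical gene of the list.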

Other observations

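The genes of cholesterol synthesis, which supplies a main lipid of myelin, were also read. All 18 passed the filter on low counts, and 11 had a log2 fold change below 0 (51.4% of all genes tested did). The median was -0.05, with a range from -0.22 to 0.20. By the edgeR QL test 0 of the 18 were called (0.516% of all genes tested), and 0 had an unadjusted p under 0.05. Over all genes tested, 4.88% were lower and 6.26% higher at that p. Their summed level was 994.5 to 1196 CPM in saline rats and 957 to 1157 CPM in METH rats.

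Of 9 further precursor genes with a row, 8 were tested. All 8 had a log2 fold change below 0, against 51.4% of all genes tested, with a median of -0.26. By the edgeR QL test 0 of the 8 were called (0.516% of all genes tested). At an unadjusted p under 0.05, 1 was lower, where 4.88% of all genes tested were. C1ql1, a secreted protein of precursors, had a lower METH mean, with an unadjusted p of 0.0294 by that test (log2 fold change -0.28, SE 0.11, FDR = 0.398). Bmp4, a growth factor that newly committed cells express, was chosen after its values were seen. It was at 7.85, 11.2, 6.91 and 6.80 CPM in saline rats 1 to 4 and at 0.587, 5.09, 13.6 and 4.90 CPM in METH rats 1 to 4, so that METH rats held both the lowest and the highest value.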
